A study of Homo sapiens with 12 samples.

Results

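Collagen chain genes encode the polypeptides that wind around one another into collagen, the main protein of the extracellular matrix. Every gene whose symbol in the array's probe annotation reads COL, a number, A and a number was taken, with all its probes. This gave 43 genes with 73 probes, of 20045 named genes and 47320 probes on the array. COL17A1, the transmembrane collagen of epithelial attachment, had no probe under that rule and was not analysed here.

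RNA came from 2 human lung epithelial lines, read on Illumina bead arrays. A549 derives from a lung adenocarcinoma, and BEAS-2B from bronchial epithelium immortalised in culture. The labels name no genetic change in either line, and cells of all 6 groups were held serum-free for 16 to 18 h overnight. They then received medium alone, or a poultry dust extract at 0.25% for 1 h or for 6 h, with 2 arrays per group, numbered 1 and 2. When the medium-alone cells were harvested is not in the labels, nor do these say whether the numbers are separate cultures, so p-values measure the spread between these arrays, which may be technical. Each line is a single cell line, so a line difference is a difference between these cultures and not between alveolar and bronchial epithelium.

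Collagens are grouped by how they assemble. Fibrillar chains (types I, II, III, V and XI among them) form the banded fibrils of connective tissue and are made mostly by fibroblasts. Network chains are those of types IV, VIII and X. Type IV forms the sheet of the basement membrane on which an epithelium sits, and epithelial cells make part of it themselves. Type VII anchors that sheet to the tissue below, type VI forms beaded microfilaments, the FACIT collagens (fibril-associated collagens with interrupted triple helices) sit on fibril surfaces, and types XV and XVIII, the multiplexins, lie in basement membrane zones.

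All 12 arrays were hybridised on 1 chip, with the A549 arrays in the first 6 positions and the BEAS-2B arrays in the last 6, so line and position cannot be told apart. Between 17730 and 19453 probes were detected per array (37.5% to 41.1%), and the faintest signal that still counted as detected was 5.18 to 5.32 (log2). Of the epithelial markers, 6 of 6 genes were detected on every array, with EPCAM higher in BEAS-2B by 2.98 (SE 0.13, adjusted p = 2.48e-08) and KRT8 differing by -1.96 (SE 0.20, adjusted p = 1.49e-05). Of 7 alveolar type II genes, SFTPC, NKX2-1 and SFTPA1 were detected on 0 of 12 arrays, and SFTPB and NAPSA on at most 1 array of a line. ABCA3 was detected on 6 of 6 A549 arrays and 1 of 6 BEAS-2B arrays, and LAMP3 on 6 of 6 arrays of each line, though by its brighter probe on 1 of 6 A549 arrays. The basal keratin KRT5 was detected on 6 of 6 BEAS-2B arrays and 0 of 6 A549 arrays. Of the other basal genes on the array, KRT14 was detected on 3 of 6 BEAS-2B arrays and 0 of 6 A549 arrays, and NGFR on no array. Of 5 leukocyte genes, CD68 and CD14 were detected on every array and LYZ on 5 of 6 A549 and 6 of 6 BEAS-2B arrays, while PTPRC and CD3E were detected on 0 of 12.

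Many collagen chain genes were not detected in either line, and network chains were the largest group among those that were. A gene is called detected in a line where 1 of its probes had a detection p under 0.05 on all 6 arrays, and partly detected where a probe did so on some of them. In A549, 13 of 43 collagen genes (30.2%) were detected, 12 partly and 18 on no array. In BEAS-2B, 11 (25.6%) were detected, 13 partly and 19 on no array. Over all 20045 named genes, 45.9% were detected in A549 and 43.9% in BEAS-2B, and 35.2% and 35.3% were detected on no array. Probes differ in sensitivity, and a gene without detection may be expressed below what its probe can show.

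By assembly type, 4 of 9 network genes were detected in both lines (COL4A1, COL4A2, COL4A5 and COL8A2) and 7 of 9 in at least 1 line. Of the 11 fibrillar genes, 4 were detected in at least 1 line and COL5A1 was detected in both. The anchoring fibril gene COL7A1 was detected in both lines, as were COL16A1 of the 10 FACIT genes and COL18A1 of the 2 multiplexin genes. Of the 5 beaded filament genes, COL6A1 was detected in BEAS-2B and partly in A549. The 3 transmembrane genes gave no detection on all 6 arrays of a line. COL13A1 was detected on no array, and COL23A1 and COL25A1 were partly detected.

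The lines differed in which chains they detected. COL5A2, COL11A1 and COL4A4 were detected in A549 and on 0 of 6 BEAS-2B arrays. The reverse held for COL8A1. COL1A1 and COL6A1 were detected in BEAS-2B and partly in A549, whereas COL4A6 and COL20A1 were detected in A549 and partly in BEAS-2B. Another 9 genes were partly detected in both lines (COL1A2, COL3A1, COL11A2, COL24A1, COL27A1, COL12A1, COL25A1, COL6A2 and COL6A5). COL6A3 and COL22A1 were partly detected in BEAS-2B and COL23A1 in A549.

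The remaining 15 genes were detected on 0 of 12 arrays with every probe. They include the cartilage genes COL2A1, COL9A1, COL9A2, COL9A3 and COL10A1, and COL4A3, the type IV chain of the glomerulus and the alveolus. COL5A3, COL6A6, COL13A1, COL14A1, COL15A1, COL19A1, COL21A1, COL26A1 and COL28A1 make up the rest. COL1A2, whose product pairs with that of COL1A1 in type I collagen, was detected on 1 of 6 A549 and 2 of 6 BEAS-2B arrays. COL3A1, the type III chain of fibroblasts and vessel walls, was detected on 2 of 6 and 1 of 6 arrays.

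The main contrast among the collagen genes lay between the lines. With medium alone, 16 of 33 tested collagen probes (48.5%) passed, 9 higher in BEAS-2B and 7 lower, where 22.4% of all 24467 tested probes passed (10.9% higher and 11.5% lower). The test was limma on normalised log2 intensities at an adjusted p under 0.05, over probes detected on at least 2 of 12 arrays. These 33 probes stand for 26 genes, and some were tested only because 1 line was bright, so their share cannot stand for all members. Without that filter 14 of 73 collagen probes passed, against 10.8% of 47320 probes. Without the A549 number 1 array with medium alone, 10 of 33 passed against 13.4% of all, and without all 3 A549 arrays of number 1 it was 6 against 9.19%, a setting added after seeing the data.

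Averaged over the 3 conditions of each line, 19 of 33 probes passed, 10 higher in BEAS-2B and 9 lower, where 42.8% of all probes passed (21.6% higher, 21.1% lower). They belong to 16 genes, 8 higher and 8 lower. Without the detection filter it was 19 of 73 probes, against 21.7% of all. The size of these differences was larger than usual on the array: the median absolute log2 difference was 1.08 for the tested collagen probes and 0.34 for all, and 17 of 33 exceeded 1, against 16.1% of all. These values describe the probes that met the filter and not all 73. The direction was balanced, with a median difference of 0.09 against 0.02 over all probes. On 16 of 33 tested collagen probes the 6 arrays of 1 line did not overlap the 6 of the other, where 29.1% of all tested probes did the same, and without the filter the counts were 18 of 73 and 15.5%. In cultures measured in bulk, fewer cells with a transcript and less of it per cell cannot be told apart. Arrays of 1 number share part of their spread across conditions. The fit with the number as a random block is therefore the more guarded one for this average. It applies 1 consensus correlation, 0.33, to every probe, and may guard too little for genes with a wide gap between numbers. It passed 18 probes (10 higher, 8 lower) against 33.7% of all (17% higher, 16.7% lower).

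**Figure D1:**
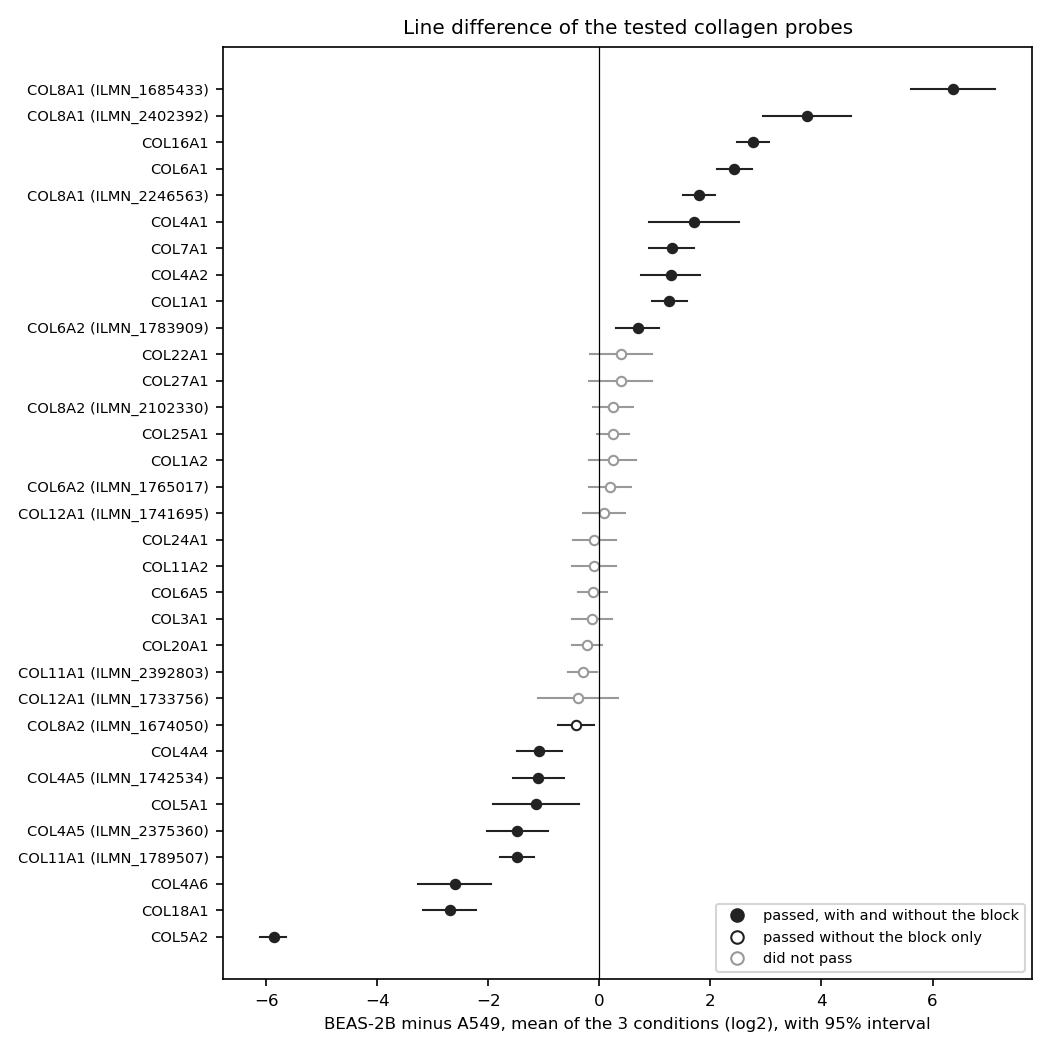
Difference between the lines (BEAS-2B minus A549, log2, average of 3 conditions) for each of the 33 tested collagen probes, with 95% intervals from limma. Filled points passed with and without the replicate block, the black open point (COL8A2) passed only without it, and grey points did not pass. COL8A1 stands at 6.37 and COL5A2 at -5.87, and the grey points lie between -0.39 and 0.39.

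The plot of line differences sets out both ends of this contrast: COL8A1, COL16A1 and COL6A1 led on the BEAS-2B side, and COL5A2, COL18A1 and COL4A6 on the A549 side. Values below are normalised log2 intensities, given for numbers 1 and 2 in that order. A difference is BEAS-2B minus A549 averaged over the 3 conditions unless another is named. Its SE and adjusted p are by limma without the block unless the block is named, and may overstate the precision. For the averaged difference, the median SE of the tested collagen probes was 0.17 without the block and 0.23 with it. Where no array of the dimmer line detected a probe, its fold is a lower bound, set against the faintest detected signal on the arrays of that line. The background step changed the size of several differences, and no collagen probe below lost its direction with it. COL8A2 lost its call without background correction, at -0.22 (adjusted p = 0.0631 by limma). The other averaged calls of collagen probes held. Without background correction the difference was -4.35 for COL5A2, 1.44 for COL6A1, 2.17 for COL16A1, -2.08 for COL18A1, -1.77 for COL4A6, 0.66 for COL1A1 and -0.77 for COL4A5 on ILMN_2375360. With an offset of 50 it was -0.77 for COL11A1, and 5.01, 2.74 and 1.00 for the COL8A1 probes, against 6.37, 3.74 and 1.79.

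Among the fibrillar chains, COL5A2 differed most. Its product joins those of COL5A1 in type V collagen, which starts and limits the width of type I fibrils. In A549, COL5A2 lay at 10.59 and 10.66 with medium alone, 10.36 and 10.60 at 1 h and 10.28 and 10.41 at 6 h. In BEAS-2B, COL5A2 lay at 4.64 and 4.54 with medium alone, 4.64 and 4.71 at 1 h and 4.57 and 4.56 at 6 h. The 6 BEAS-2B arrays were all below detection and far from every A549 array. The difference was -5.87 (SE 0.11, adjusted p = 2.83e-11). Under the main processing this was at least 37.2-fold higher in A549, and with medium alone at least 41.7-fold. Without background correction the averaged difference was -4.35, smaller than its bound.

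COL5A1, the partner chain, was detected on all 12 arrays. In A549, COL5A1 lay at 9.07 and 9.49 with medium alone, 8.87 and 9.41 at 1 h and 8.92 and 8.91 at 6 h. In BEAS-2B, COL5A1 lay at 8.87 and 7.27 with medium alone, 8.89 and 7.43 at 1 h and 8.45 and 6.93 at 6 h. The 3 BEAS-2B arrays of number 1 came near or reached the A549 range and the 3 of number 2 did not, so the lines overlapped. The averaged difference of -1.14 (SE 0.35, adjusted p = 0.0227) passed and that with medium alone, -1.21 (SE 0.61, adjusted p = 0.197), did not. The probe also missed the threshold when the detection filter was dropped, with an adjusted p of 0.07, and without any 1 of 5 arrays (the A549 number 2 arrays with medium alone and at 1 h, and each BEAS-2B number 2 array), at 0.0546 to 0.061. The averaged difference was -1.90 without all 3 BEAS-2B arrays of number 1 and -0.37 without those of number 2. It was -1.30 without all 3 A549 arrays of number 1 and -0.98 without those of number 2. Each of these fits leaves 1 array per group in a line, so only the size is given. So the type V chains stood apart in detection: COL5A1 in both lines, COL5A2 in A549, and COL5A3 in neither.

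COL1A1, the major chain of type I collagen, the most abundant fibrillar collagen of skin, bone and scar, was near the detection limit in A549. In A549, COL1A1 lay at 5.23 and 5.69 with medium alone, 5.51 and 5.93 at 1 h and 5.01 and 4.78 at 6 h. In BEAS-2B, COL1A1 lay at 6.87 and 6.60 with medium alone, 6.80 and 6.63 at 1 h and 6.20 and 6.62 at 6 h. All 6 BEAS-2B arrays lay above all 6 A549 arrays, 4 of which detected it. The difference was 1.26 (SE 0.14, adjusted p = 3.76e-05).

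COL11A1, a chain of the type XI fibrils best known from cartilage, was brighter in A549 on 1 of 4 probes. In A549, COL11A1 lay at 6.37 and 5.82 with medium alone, 6.04 and 5.78 at 1 h and 5.97 and 5.62 at 6 h. In BEAS-2B, COL11A1 lay at 4.40 and 4.43 with medium alone, 4.36 and 4.42 at 1 h and 4.74 and 4.35 at 6 h. The lines did not overlap, no BEAS-2B array detected the probe, and the difference was -1.48 (SE 0.14, adjusted p = 9.38e-06), at least 1.59-fold higher in A549. A second tested probe (ILMN_2392803) gave -0.30 and did not pass, and the other 2 were detected on 0 of 12 arrays. COL1A2 and COL3A1 did not pass. Their differences were 0.24 (95% interval -0.18 to 0.65) and -0.13 (-0.49 to 0.23), which leaves room for a modest difference in either direction.

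The type IV genes divided by pair. In the human genome they lie head to head in pairs, COL4A1 with COL4A2, COL4A3 with COL4A4, and COL4A5 with COL4A6, each pair reading outward from a shared stretch. COL4A1 and COL4A2 were both higher in BEAS-2B, and COL4A5 and COL4A6 were both higher in A549. COL4A4 was also higher in A549, while COL4A3 was detected on no array of either line. The sequences between the starts of the first and the last pair are shown because the genes on either side of each differed in the same direction.

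The stretch between the COL4A1 and COL4A2 starts, chr13:110307158-110307283 (GRCh38.p14, plus strand, from RefSeq), is 126 bases long and 80.2% G or C. The second sequence, chrX:108439588-108439837 on the plus strand, is the 250 bases before the COL4A5 start, out of 379 between the COL4A6 and COL4A5 starts, and is 51.2% G or C. Capitals mark matches to GGGCGG (the GC box), CCAAT and TATAAA, searched on both strands, so that ATTGG is CCAAT read on the minus strand.
COL4A1-COL4A2: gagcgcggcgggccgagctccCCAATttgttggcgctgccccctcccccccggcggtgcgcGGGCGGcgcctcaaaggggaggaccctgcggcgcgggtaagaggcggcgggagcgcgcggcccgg
COL4A5 upstream: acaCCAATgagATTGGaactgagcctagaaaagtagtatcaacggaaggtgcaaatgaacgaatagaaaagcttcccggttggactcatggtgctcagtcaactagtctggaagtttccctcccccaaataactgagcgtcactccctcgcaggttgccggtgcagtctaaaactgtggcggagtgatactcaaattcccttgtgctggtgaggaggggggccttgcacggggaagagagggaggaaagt
The first holds 1 GGGCGG, 1 CCAAT and 0 TATAAA. The second holds 0 GGGCGG, 2 CCAAT and 0 TATAAA. Of 35097 upstream windows of 126 bases in the RefSeq promoter table, 34.6% hold GGGCGG, 21.1% CCAAT and 5.87% TATAAA. For windows of 250 bases the shares are 42.6%, 32% and 10.7%. A match describes these letters and not a bound site.

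COL4A1 and COL4A2 encode the chains of the type IV network found in nearly every basement membrane. In A549, COL4A1 lay at 7.49 and 8.17 with medium alone, 7.49 and 8.39 at 1 h and 8.88 and 8.82 at 6 h. In BEAS-2B, COL4A1 lay at 10.66 and 9.06 with medium alone, 10.62 and 9.01 at 1 h and 10.68 and 9.42 at 6 h. Each BEAS-2B array lay above each A549 array, but the BEAS-2B arrays of number 1 stood well above those of number 2. The difference was 1.70 (SE 0.37, adjusted p = 0.00298). With medium alone it was 2.03 (SE 0.63, adjusted p = 0.0413), but the adjusted p was 0.113 without the detection filter. It ran from 0.0587 to 0.279 without any 1 of 5 arrays (both A549 arrays with medium alone, both at 6 h, and BEAS-2B number 1 with medium alone). The difference itself with medium alone was 1.23 without the BEAS-2B number 1 array of that condition and 2.83 without number 2. The averaged difference was 0.96 without all 3 BEAS-2B arrays of number 1 and 2.45 without those of number 2. Without all 3 A549 arrays of number 1 it was 1.44. Each of these fits leaves 1 array per group in a line, so only the size is given.

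In A549, COL4A2 lay at 5.38 and 5.75 with medium alone, 5.96 and 6.31 at 1 h and 6.56 and 6.54 at 6 h. In BEAS-2B, COL4A2 lay at 7.76 and 7.31 with medium alone, 7.68 and 6.68 at 1 h and 8.04 and 6.73 at 6 h. The lines again did not overlap, and number 1 was again the brighter in BEAS-2B. The difference was 1.29 (SE 0.24, adjusted p = 0.0013), and 0.82 to 1.75 without all arrays of 1 number in 1 line. With medium alone it was 1.97 (SE 0.42, adjusted p = 0.00645). The latter did not pass without the A549 number 1 array with medium alone (adjusted p = 0.0566), and without background correction it was 1.19 and passed.

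COL4A5 and COL4A6 encode chains of a second network, present in bronchial, skin and smooth muscle basement membranes among others. In A549, COL4A5 (probe ILMN_1742534) lay at 10.37 and 9.56 with medium alone, 10.17 and 9.39 at 1 h and 10.21 and 9.40 at 6 h. In BEAS-2B, COL4A5 lay at 8.87 and 8.60 with medium alone, 8.84 and 8.70 at 1 h and 8.94 and 8.52 at 6 h. A549 was higher on every array, and the difference was -1.10 (SE 0.21, adjusted p = 0.00132). A second probe (ILMN_2375360), detected on 6 of 6 A549 and 2 of 6 BEAS-2B arrays, differed in the same direction, by -1.48 (SE 0.25, adjusted p = 0.000623).

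In A549, COL4A6 lay at 8.98 and 7.92 with medium alone, 8.64 and 8.17 at 1 h and 8.91 and 7.89 at 6 h. In BEAS-2B, COL4A6 lay at 6.30 and 5.57 with medium alone, 6.18 and 5.18 at 1 h and 6.33 and 5.30 at 6 h. The lines were widely separate, with number 1 the brighter in both. The difference was -2.61 (SE 0.29, adjusted p = 3.32e-05) on 1 of 3 probes, the other 2 being detected on 0 of 12 arrays. With medium alone it was -2.51, and -3.04 to -1.98 without any 1 array.

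COL4A4, which joins the products of COL4A3 and COL4A5 in the network of the glomerulus and alveolus, was dim. In A549, COL4A4 lay at 5.57 and 6.40 with medium alone, 5.88 and 6.10 at 1 h and 5.62 and 5.39 at 6 h. In BEAS-2B, COL4A4 lay at 4.49 and 5.14 with medium alone, 4.54 and 5.14 at 1 h and 4.53 and 4.62 at 6 h. All A549 arrays detected it and no BEAS-2B array did, so the difference of -1.08 (SE 0.18, adjusted p = 0.000653) stands for at least 1.48-fold. With medium alone the difference was -1.17, and -1.58 to -0.76 without any 1 array.

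**Figure D2:**
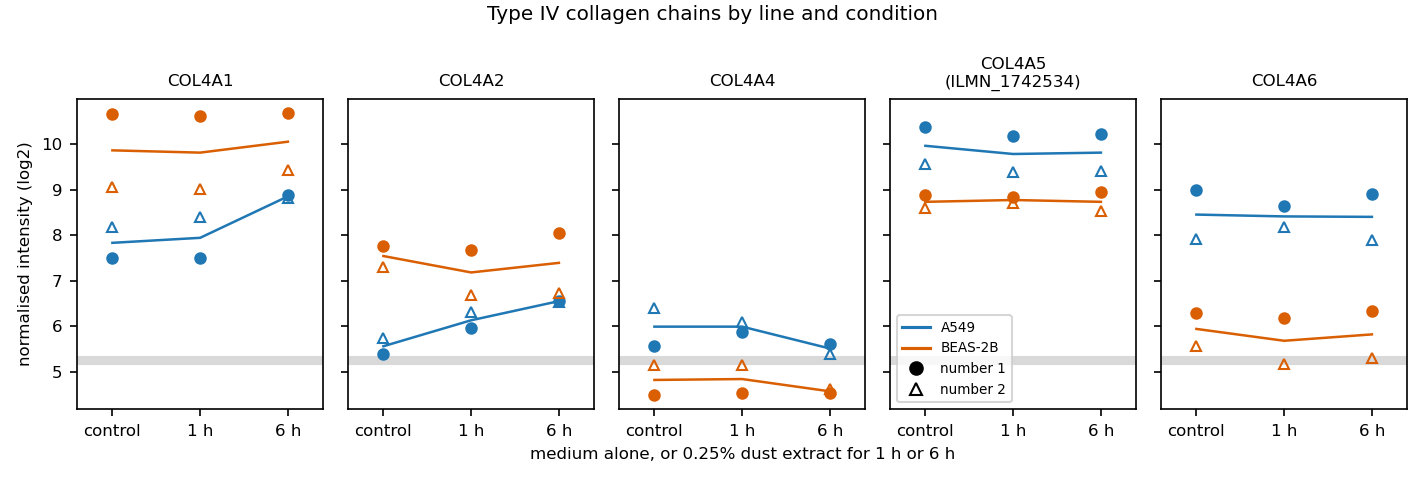
Normalised log2 intensity of 5 type IV collagen chains in A549 (blue) and BEAS-2B (orange) with medium alone and after 1 h or 6 h of dust extract. Each point is an array (circle number 1, triangle number 2), lines join group means, and the grey band is the dimmest detected probe over the 12 arrays. COL4A1 and COL4A2 lie higher in BEAS-2B on every array and COL4A4, COL4A5 and COL4A6 higher in A549.

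The plot of the type IV chains shows that the order of the lines held in every condition, and that the distance between the 2 arrays of a group was often as wide as any shift with dust extract.

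COL8A1 and COL8A2 encode the short network-forming chains of type VIII collagen, known from corneal endothelium and vessel walls. In A549, COL8A1 (probe ILMN_1685433) lay at 4.42 and 4.42 with medium alone, 4.38 and 4.32 at 1 h and 4.38 and 4.34 at 6 h. In BEAS-2B, COL8A1 lay at 11.47 and 9.88 with medium alone, 11.41 and 9.80 at 1 h and 11.65 and 10.30 at 6 h. No A549 array detected it and every BEAS-2B array did, with number 1 the brighter. The difference was 6.37 (SE 0.34, adjusted p = 1.07e-07), at least 46.1-fold higher in BEAS-2B.

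The other 2 COL8A1 probes went the same way. ILMN_2402392 gave 3.74 (SE 0.36, adjusted p = 1.03e-05), or 10.2-fold at the least, and ILMN_2246563 1.79 (SE 0.13, adjusted p = 1.17e-06), or 2.08-fold at the least. The gap between numbers in BEAS-2B appeared on the first and second of these 3 probes, at 1.52 and 1.56, and not on the third, at 0.05. Without all 3 BEAS-2B arrays of number 1 the first gave 5.61 and the second 2.96, and without those of number 2 they gave 7.14 and 4.52.

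In A549, COL8A2 (probe ILMN_1674050) lay at 6.54 and 6.06 with medium alone, 6.22 and 6.22 at 1 h and 6.56 and 6.35 at 6 h. In BEAS-2B, COL8A2 lay at 5.73 and 6.01 with medium alone, 5.38 and 6.01 at 1 h and 6.29 and 5.99 at 6 h. These ranges overlapped. The difference of -0.42 (SE 0.15, adjusted p = 0.0432) did not pass with the replicate block (adjusted p = 0.146). It also failed without any 1 of 8 arrays, at 0.0573 to 0.12: A549 number 1 in each condition, A549 number 2 at 1 h and 6 h, BEAS-2B number 1 with medium alone and at 1 h, and BEAS-2B number 2 at 6 h. Its second probe gave 0.25 and did not pass. So of the type VIII pair, COL8A1 had the large difference and COL8A2 was detected in both lines with a small one. That contrast between the genes was not tested.

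COL16A1, the FACIT chain with the largest difference, lies at fibril surfaces and basement membrane zones. In A549, COL16A1 lay at 6.51 and 6.80 with medium alone, 6.64 and 6.25 at 1 h and 6.56 and 6.74 at 6 h. In BEAS-2B, COL16A1 lay at 9.48 and 9.63 with medium alone, 9.58 and 9.46 at 1 h and 8.74 and 9.16 at 6 h. The lowest BEAS-2B array stood well above the highest A549 array, and the difference was 2.76 (SE 0.13, adjusted p = 4.26e-08). Of the other FACIT genes, COL12A1 did not pass on either probe (-0.39 and 0.09), nor did COL20A1 (-0.23) or COL22A1 (0.39).

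COL6A1 and COL6A2 encode chains that join with a long chain such as that of COL6A3 in the beaded filaments of type VI. In A549, COL6A1 lay at 5.41 and 5.34 with medium alone, 5.16 and 5.11 at 1 h and 5.27 and 5.35 at 6 h. In BEAS-2B, COL6A1 lay at 7.42 and 7.79 with medium alone, 7.36 and 8.04 at 1 h and 7.69 and 7.90 at 6 h. A549 sat at the detection limit, with 4 of 6 arrays detecting it, and the difference was 2.43 (SE 0.14, adjusted p = 1.97e-07).

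COL6A2 was near the limit in both lines. On its brighter probe, ILMN_1765017, the A549 arrays lay at 5.37 and 4.71 with medium alone, 5.79 and 5.39 at 1 h and 5.21 and 5.61 at 6 h. The BEAS-2B arrays lay at 5.77 and 5.42 with medium alone, 5.72 and 5.16 at 1 h and 5.68 and 5.49 at 6 h. These ranges overlapped, and the difference of 0.19 (SE 0.17, adjusted p = 0.405) did not pass. The dimmer probe, ILMN_1783909, did pass. Its A549 arrays lay at 4.82 and 5.25 with medium alone, 4.78 and 5.14 at 1 h and 4.69 and 4.69 at 6 h. Its BEAS-2B arrays lay at 5.85 and 5.64 with medium alone, 4.87 and 5.25 at 1 h and 6.40 and 5.49 at 6 h. These ranges also overlapped, and the difference was 0.69 (SE 0.17, adjusted p = 0.00787). It stands for at least 1.28-fold, since no A549 array detected the probe, and 4 of 6 BEAS-2B arrays did. The difference between these COL6A2 probes was not tested. Another COL6A2 probe, ILMN_1809928, was detected on no array. COL6A3, the long chain, was detected on 1 of 6 BEAS-2B arrays by 1 of 2 probes.

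COL7A1, the anchoring fibril chain of stratified epithelia, was bright in both lines. In A549, COL7A1 lay at 9.65 and 9.98 with medium alone, 9.39 and 10.18 at 1 h and 9.86 and 10.01 at 6 h. In BEAS-2B, COL7A1 lay at 11.46 and 10.96 with medium alone, 11.50 and 10.96 at 1 h and 11.29 and 10.71 at 6 h. Each BEAS-2B array was above each A549 array, and the difference was 1.30 (SE 0.19, adjusted p = 0.000199). With medium alone it was 1.39, and 1.14 to 1.64 without any 1 array.

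COL18A1, whose C-terminal fragment is endostatin, went the other way. In A549, COL18A1 lay at 9.56 and 8.91 with medium alone, 9.48 and 8.94 at 1 h and 9.32 and 8.84 at 6 h. In BEAS-2B, COL18A1 lay at 6.16 and 7.09 with medium alone, 6.23 and 6.65 at 1 h and 6.05 and 6.66 at 6 h. The lines did not overlap and the difference was -2.70 (SE 0.21, adjusted p = 2.37e-06). Its second probe was detected on 0 of 12 arrays, as was COL15A1, the other multiplexin gene.

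**Figure D3:**
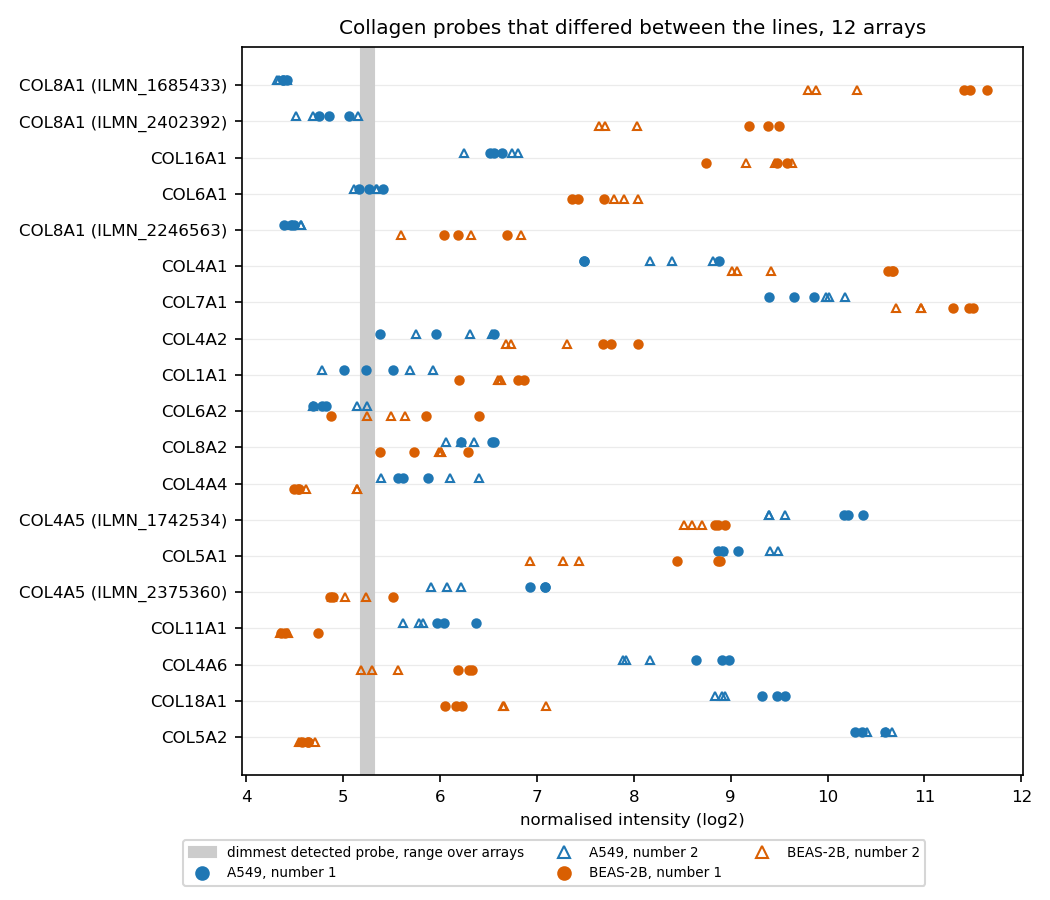
Normalised log2 intensity on each of the 12 arrays for the 19 collagen probes that differed between the lines by limma, ordered by the difference. Blue is A549 and orange BEAS-2B, circles are number 1 and open triangles number 2, and the grey band spans the dimmest detected probe of the arrays. A549 lies under the band for the 3 COL8A1 probes and BEAS-2B for COL5A2, COL11A1 and COL4A4.

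The plot of levels by array shows separate clouds for most of these probes and overlapping ones for COL5A1, COL6A2 and COL8A2. It also shows that the numbers split the BEAS-2B arrays of COL4A1, COL5A1 and 2 of 3 COL8A1 probes. Levels of different probes in it are not comparable, because each probe binds with its own efficiency.

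In BEAS-2B the gap between replicate numbers was, for several collagen genes, as wide as many line differences. Averaged over the 3 conditions, number 1 exceeded number 2 by 1.53 for COL5A1, 1.49 for COL4A1, 1.04 for COL22A1 and 1.00 for COL27A1, besides COL8A1 above. COL4A2 and COL4A6 followed at 0.92 each, and COL18A1 went the other way, at -0.65. For 15 of 33 tested collagen probes the 3 arrays of one number did not overlap the 3 of the other, where 26.8% of all tested probes did the same. A gap over 1 was found for 5 of them, against 3.64% of all probes.

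In A549 the gaps were smaller and fell on other genes. COL12A1 led at 1.24, then COL4A5 at 0.97 and 0.80 on its probes, COL4A6 at 0.85 and COL18A1 at 0.56, while COL4A1 went the other way at -0.51. The numbers did not overlap for 9 of 33 collagen probes, against 22.3% of all. The median absolute gap was 0.21 in A549 and 0.30 in BEAS-2B for the collagen probes, and 0.17 and 0.22 for all tested probes. These gaps are descriptions of 2 sets of 3 arrays in each line and were not tested. What the numbers stand for is not given in the labels.

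**Figure D4:**
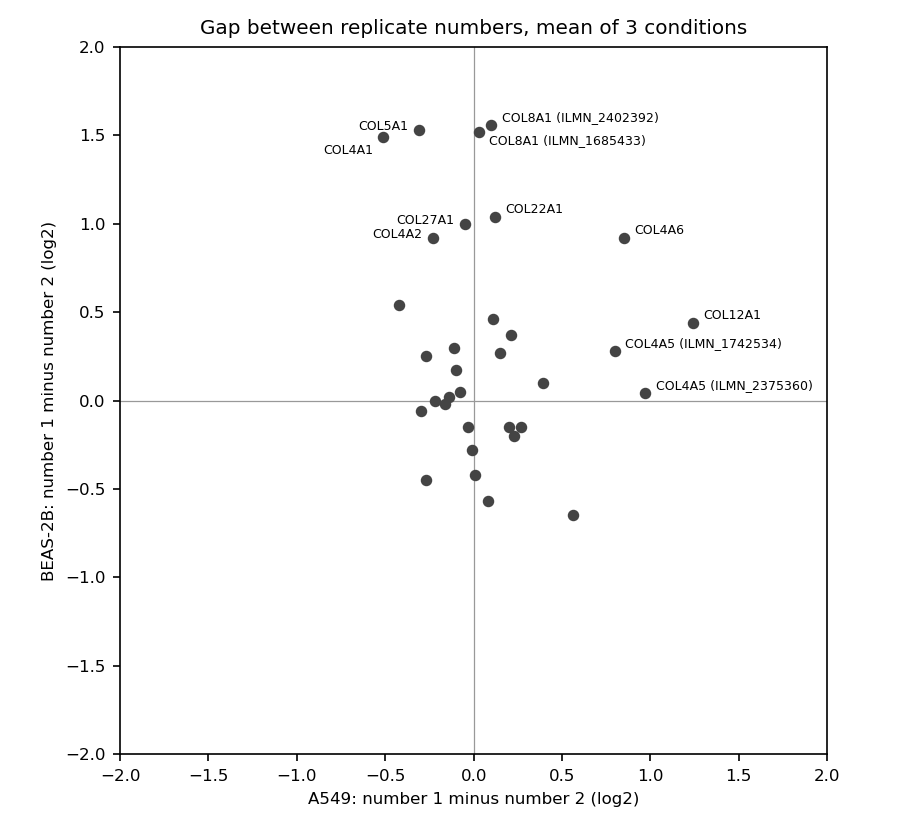
Gap between replicate numbers (number 1 minus number 2, log2, average of 3 conditions) in A549 (x axis) and BEAS-2B (y axis) for the 33 tested collagen probes, with the widest named. COL8A1, COL5A1 and COL4A1 lie near 1.5 in BEAS-2B and near or under 0 in A549, where COL12A1 leads at 1.24.

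In the plot of gaps, COL4A6 is wide in both lines, whereas the other named genes are wide mainly in 1.

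Dust extract changed no collagen probe past the threshold in either line. The comparisons of 1 h and of 6 h share the medium-alone arrays, so they are not separate evidence. In A549, 0 of 33 collagen probes passed by limma at 1 h and 0 of 33 at 6 h, where 0.0858% and 0.00409% of all probes passed. In BEAS-2B, 0 of 33 passed at 1 h and 0 of 33 at 6 h, against 0.114% and 0.0613%. At an unadjusted p under 0.05 the collagen counts were 0, 2, 2 and 2, where 2.37%, 3.79%, 4.28% and 5.87% of all probes did the same. With the number as a within-line block, 0 collagen probes passed, with 2, 3, 3 and 2 under 0.05 unadjusted, while the share of all probes that passed was 0.335%, 0.298%, 0.523% and 0.584%. So few probes passed in all that a count of 0 among 33 is near what the array shows at large.

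For 6 h against 1 h of dust extract, 0 of 33 collagen probes passed in A549 (0.0327% of all) and 0 of 33 in BEAS-2B (0.0531%). At an unadjusted p under 0.05 the counts were 1 and 3 (3.49% and 5.99% of all), and with the block 2 and 7, none of which passed after adjustment (block percentages of all probes 0.274% and 0.699%). The test of whether the change differed between the lines passed 0 of 33 at 1 h (0% of all, 1 collagen probe at an unadjusted p under 0.05 by limma and 3 with the block) and 0 of 33 at 6 h (0.00817% of all, 0 unadjusted and 2 with the block). With the block 0 of 33 also passed at each time, against 0.0368% and 0.106% of all. At an unadjusted p under 0.05 lay 2.32% and 3.65% of all probes without the block.

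The widest shifts with dust extract were those of the paired genes COL4A1 and COL4A2 in A549 at 6 h. COL4A1 stood 1.02 above medium alone (SE 0.63, 95% interval -0.38 to 2.42, adjusted p = 1 by limma and 0.165 with the block). COL4A2 stood 0.99 above (SE 0.42, 95% interval 0.06 to 1.91, adjusted p = 1 by limma and 0.152 with the block). Both 6 h arrays of each gene lay above both medium-alone arrays. Neither gene passed, although COL4A2 was under 0.05 unadjusted and both were with the block. In BEAS-2B the same genes gave 0.19 and -0.15 at 6 h. The difference between the lines in that change was -0.83 for COL4A1 and -1.14 for COL4A2, with adjusted p by limma of 1 for each and of 0.484 and 0.31 with the block.

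Other shifts were smaller. In BEAS-2B the mean of COL12A1 (ILMN_1733756) was 5.84 with medium alone and 5.13 at 1 h. That of COL6A2 (ILMN_1783909) was 5.75 with medium alone, 5.06 at 1 h and 5.95 at 6 h. Neither passed. COL1A1 in A549 was -0.56 at 6 h against medium alone (adjusted p = 1 by limma and 0.517 with the block) and -0.82 against 1 h (adjusted p = 1 by limma and 0.336 with the block). In BEAS-2B, 1 of 3 COL8A1 probes, ILMN_2246563, stood 0.88 above medium alone at 1 h (adjusted p = 0.4 by limma and 0.175 with the block). The leading COL8A1 probe gave -0.07 there. COL16A1 in BEAS-2B was -0.61 at 6 h (adjusted p = 0.758 by limma and 0.272 with the block).

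**Figure D5:**
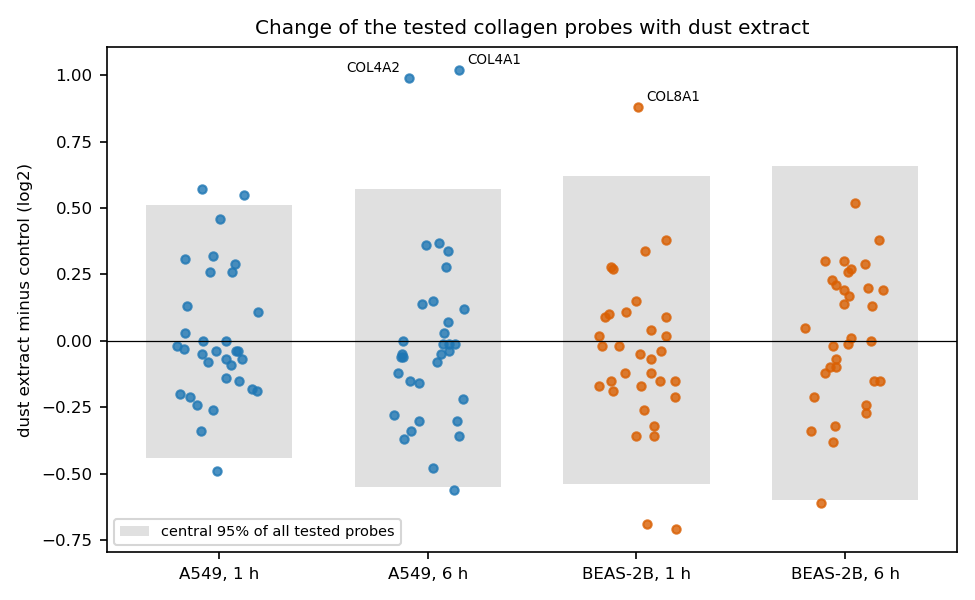
Log2 change with dust extract against medium alone for the 33 tested collagen probes (points) at 1 h and 6 h in each line, with the central 95% of all 24467 tested probes as grey boxes. No point passed the test. COL4A1 and COL4A2 in A549 at 6 h and a COL8A1 probe in BEAS-2B at 1 h are the named points outside the boxes.

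As the plot of changes with dust extract shows, nearly all collagen probes lay within the spread of the array: 30 of 33 were inside the central 95% of all probes at 1 h in A549, 30 at 6 h, and 30 and 32 in BEAS-2B. The range ran from -0.49 to 0.57 at 1 h and from -0.56 to 1.02 at 6 h in A549. In BEAS-2B it ran from -0.71 to 0.88 and from -0.61 to 0.52. The median standard error of a single change was 0.30 for these probes without the block and 0.21 with it.

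Some genes that build, secrete and bind collagen also differed between the lines, in both directions. Over all tested probes 42.8% passed (21.6% higher in BEAS-2B, 21.1% lower). With the block it was 33.7% (17% higher, 16.7% lower). Of 21 tested genes for collagen maturation and secretion (32 on the array), 4 were higher in BEAS-2B and 8 lower (3 and 8 with the block), with a median difference of 0.05 against 0.02 over all probes. LOX, the enzyme that starts collagen cross-links, was higher by 2.31 (SE 0.25, adjusted p = 2.81e-05). No A549 array detected it, so this is at least 2.97-fold. P4HA2, a catalytic subunit of prolyl hydroxylase, was higher by 1.27 (SE 0.29, adjusted p = 0.00466), and SERPINH1, the collagen chaperone of the endoplasmic reticulum, by 0.93 (SE 0.23, adjusted p = 0.00657). P3H1 followed at 0.38 and did not pass with the block (adjusted p = 0.0262 by limma without the block and 0.0885 with it).

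On the A549 side, PCOLCE2, an enhancer of procollagen C-proteinase, differed by -4.11 (SE 0.24, adjusted p = 1.7e-07), and 1 of 6 BEAS-2B arrays detected it. The prolyl hydroxylation genes CRTAP (-1.12), P3H4 (-1.10), P3H2 (-0.82) and P3H3 (-0.78) were also higher in A549. So were the lysyl hydroxylases PLOD1 (-0.85) and PLOD2 (-0.54), and P4HB (-0.63).

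Of 8 tested collagen receptors (11 on the array), 1 was higher in BEAS-2B and 3 lower, and 0 and 2 with the block, with a median of -0.46. These counts lie near the share of all tested probes, 42.8% and 33.7% with the block. ITGB1, the beta subunit that all collagen-binding integrins share, differed by -1.32 (SE 0.13, adjusted p = 1.23e-05), and ITGA11 by -0.98 and ITGA10 by -0.54. DDR1, a receptor tyrosine kinase for collagen, was higher in BEAS-2B by 0.53. DDR1 and ITGA10 did not pass with the block (adjusted p by limma of 0.0171 and 0.0374 without the block, and 0.0574 and 0.121 with it). ITGA10 was detected on 3 of 6 BEAS-2B arrays and ITGA11 on 4. With dust extract, ITGA2 passed in BEAS-2B at 6 h, only with the block: it rose by 1.50 (SE 0.30, adjusted p = 0.22 by limma without the block and 0.0313 with it).

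Of 10 tested basement membrane partners of type IV collagen (15 on the array), 6 were higher in BEAS-2B and 2 lower (5 and 2 with the block). Their median was 0.69. Over all tested probes 42.8% passed, and 33.7% with the block. SPARC, a collagen-binding matrix protein, was higher by 4.31 (SE 0.20, adjusted p = 2.86e-08), with 3 of 6 A549 arrays detecting it, and the laminin chain gene LAMB3 by 3.34 (SE 0.47, adjusted p = 0.000171). PXDN, which cross-links type IV collagen, was higher by 1.13, LAMB2 by 0.93, AGRN by 0.75 and NID1 by 0.62. NID1, detected on 2 of 6 A549 arrays, did not pass with the block (adjusted p = 0.0166 by limma without the block and 0.0751 with it). LAMB1 was higher in A549, differing by -2.17 (SE 0.18, adjusted p = 2.66e-06). LAMC3 was also higher in A549, by at least 1.94-fold, since no BEAS-2B array detected it (adjusted p = 0.000998 by limma).

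Mesenchymal markers moved between the lines beside the collagen genes. Of 13 listed, 6 were detected on every array of A549 and 6 in BEAS-2B. Of 8 tested, 2 were higher in BEAS-2B and 3 lower (2 and 2 with the block), where 42.8% of all tested probes passed (33.7% with the block). TAGLN was higher in BEAS-2B by 2.33, and THY1, detected on no A549 array, by at least 2.02-fold. LUM, detected on no BEAS-2B array, was higher in A549 by at least 1.54-fold. CDH2 differed by -0.55 and FBLN1 by -0.40, both higher in A549. FBLN1 did not pass with the block (adjusted p = 0.0143 by limma without the block and 0.0611 with it). THY1 also passed in BEAS-2B for 6 h against 1 h of dust extract, only with the block: it rose by 1.08 (SE 0.25, adjusted p = 0.27 by limma without the block and 0.0288 with it). The fibroblast markers PDGFRA, PDGFRB and POSTN were detected on 0 of 12 arrays. The summed linear level of the list ran from 9365 to 11421 in A549 and from 9497 to 15346 in BEAS-2B. Of the alveolar type II list, LAMP3 was higher in BEAS-2B by 4.51 on its brighter probe and ABCA3 differed by -3.00, with list sums of 339 to 530 in A549 and 393 to 2133 in BEAS-2B. Of the bronchial basal list, KRT5 was higher in BEAS-2B by at least 5.27-fold, with sums of 67 to 78 against 189 to 458. KRT14 (1.25, adjusted p = 0.0672 by limma) did not pass, and NGFR was detected on no array. Of the leukocyte list CD14 was higher in BEAS-2B by 1.36 and CD68 (-0.19) and LYZ (0.47) did not pass, with sums of 779 to 1154 against 683 to 1648, and 0 of 4 endothelial markers were detected on all arrays of a line. The part of these markers in the collagen differences was not tested.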

How the data were processed

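The members, gene lists and comparisons were chosen with earlier results of these data known. The authors deposited mean bead intensity values, per the file headers neither background-subtracted nor normalised, and a detection p-value for each probe and array (deposited in steps of 1 in 770). GenomeStudio 2011.1 was used, per the submitters' processing notes. They also deposited a matrix of linear intensity values (array medians 87.60 to 87.65), used only as an alternative. The 24 columns of bead numbers and bead errors were not used.

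Values were computed with R 4.3.3 and limma 3.58.1 by neqc: normexp background correction with negative controls inferred from the detection p-values, an offset of 16, quantile normalisation and log2. Of 47320 probes, 30112 carry 1 gene symbol, 8 several and 17200 none in the probe table. All 43 collagen symbols matched RefSeq by gene number. The tested set held the probes whose detection p fell under 0.05 on 2 or more of the 12 arrays (24467, of which 33 collagen). Each probe was tested on its own with limma, a mean for each of 6 groups (6 residual and 4.79 prior degrees of freedom), and Benjamini-Hochberg adjustment within a comparison over all kept probes. The scripts were tested on simulated data. No probe sequences were used here, so binding to related transcripts was not checked.

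The replicate numbers were checked as a pairing. Deviations from group means correlated between same-numbered arrays by 0.402 to 0.467 within A549 and 0.533 to 0.649 within BEAS-2B, and by -0.05 to 0.046 between the lines. The number was therefore a fixed block within each line for the dust comparisons and a random block (consensus correlation 0.33) for the line comparisons. The number of arrays limits the precision.

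Genes named with all their arrays are those with a probe that passed in any comparison, and from the lists those that passed. Where a gene had several tested probes, the one with the highest mean over all arrays leads and the others follow. Alternatives were the block, an offset of 50, no background correction, the deposited matrix, no detection filter, a detection p under 0.01, and leaving out each array.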

Additional observations from a re-analysis of the deposited data

How the results depend on the processing

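The log2 changes of the named collagen probes gave 801 values under the alternatives, of which 0 reversed, 731 stayed on the same side of the threshold and 70 no longer passed. With medium alone, the 16 collagen probes became 13 to 16 under 6 alternative settings and 10 to 16 without any 1 array. Leaving out all arrays of 1 number in 1 line, a setting added after seeing the data, gave 6 to 16, the lowest without A549 number 1. The 19 probes of the average over conditions became 15 to 19, 17 to 19 without any 1 array and 14 to 20 without a number. Dust extract gave 0 collagen probes under every alternative. The genes detected ran from 9 (detection p under 0.01) to 18 (at least 4 of 6 arrays) in A549 and from 10 to 15 in BEAS-2B, and from 13 to 16 and 12 to 16 without a number.

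The replicate block ended the call of COL8A2, moved the receptors from 4 to 2 genes and from 0 to 1 (ITGA2, BEAS-2B at 6 h), and moved the basement membrane partners with medium alone from 4 to 7. It changed no other call among the collagen probes. Receptors with medium alone fell from 2 to 1 without the detection filter. Without any 1 array or 1 number, the list counts ran from 1 to 8 for maturation (7 with medium alone), 1 to 2 for receptors (2) and 2 to 6 for basement membrane partners (4), and over the average from 8 to 14 (12), 2 to 5 (4) and 7 to 8 (8). The cause was not tested. Probes near background, such as those of COL6A2, COL4A4 and COL11A1, have the least room above the detection limit, and 2 arrays per group limit what the dust comparisons can resolve.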
